A study of Homo sapiens with 12 samples.

Results

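Transcripts of the mitochondrial genome were followed in K562 cells, a human erythroleukemia line whose growth is driven by the fusion kinase BCR-ABL1. The members were the rows of the count table whose gene name begins with MT-, which gave 37 genes of 58735, namely 13 mRNAs, 2 rRNAs and 22 tRNAs. They comprise 28 genes annotated on the plus strand and 9 on the minus strand. The study had 12 RNA-seq libraries, 3 biological replicates in each of 4 groups, prepared from total RNA and read as 150-base pairs. The groups were mock DMSO (vehicle alone), mock nilotinib (nilotinib at 0.1 μM), hemin DMSO (hemin at 50 μM for 24 h) and hemin nilotinib (nilotinib pretreatment followed by the same hemin exposure). Nilotinib is an inhibitor of BCR-ABL1 and other tyrosine kinases, and hemin is the iron porphyrin used to push K562 cells towards hemoglobin synthesis. All groups share the same leukemic line and its fusion kinase. Library names carry 0 for the mock groups and 24 for the hemin groups, and cells were taken at 0 and 24 h, which points to mock cells having been collected 24 h earlier. Hemin and the added time in culture therefore cannot be told apart. As nilotinib was given before hemin, hemin nilotinib cells may also have had a longer drug exposure than mock nilotinib cells. Differences between these groups, and between the nilotinib effects with and without hemin, may thus include exposure time. The part of exposure time was not tested.

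Mitochondrial DNA is a small circle with no introns, and nearly all of both strands is copied into long precursor RNAs. The tRNAs lie between the mRNAs and rRNAs, and the precursors are released by cutting at the tRNA ends, which is why this layout is called tRNA punctuation. The mRNAs encode core subunits of respiratory complexes I, III, IV and V, the rRNAs and tRNAs serve the ribosome inside the organelle, and every other protein needed for this expression comes from nuclear genes. Respiring mitochondria matter in erythroid cells because heme synthesis begins and ends inside them.

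The layout is visible in the sequences, and it bears on how reads are shared between neighbours. All 37 genes have the same name, start, end and strand in GENCODE 29 (GRCh38), from whose transcripts the sequences below were read. Of the 36 boundaries between consecutive genes, 20 have no base between the genes and 5 have bases in common. Of the 13 mRNAs, 6 end as annotated in an incomplete stop codon that polyadenylation completes. MT-ATP6 is not among the 6, since it is annotated with a full TAA whose last base is also the first of MT-CO3. The following 3′ ends, each 30 bases long, are those of mRNAs whose share of the mitochondrial mRNAs is described further on, with MT-ND6 as the lone minus-strand mRNA, and capitals mark the stop codon or the part of it that is encoded.
MT-ND1, chrM:4233-4262, plus strand: tacaatctccagcattccccctcaaaccTA
MT-ND2, chrM:5482-5511, plus strand: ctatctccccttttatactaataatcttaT
MT-CO1, chrM:7416-7445, plus strand: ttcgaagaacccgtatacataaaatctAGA
MT-CO3, chrM:9961-9990, plus strand: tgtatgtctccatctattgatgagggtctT
MT-CYB, chrM:15858-15887, plus strand: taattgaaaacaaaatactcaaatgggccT
MT-ND6, chrM:14149-14178, minus strand: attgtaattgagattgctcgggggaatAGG
MT-ND1, MT-ND2, MT-CO3 and MT-CYB each run directly into a tRNA on the same strand, whereas MT-CO1 and MT-ND6 end in complete triplets.

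The ATP synthase genes MT-ATP8 and MT-ATP6 are carried by the same RNA and share 46 bases, in capitals in the last 76 bases of MT-ATP8.
MT-ATP8, chrM:8497-8572, plus strand: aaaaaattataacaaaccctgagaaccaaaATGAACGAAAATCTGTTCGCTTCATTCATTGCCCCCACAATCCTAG
A read in that stretch belongs to both genes, and MT-ND4L and MT-ND4, which share 7 bases, have the same limit.

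The tRNA genes on which the results turn are shown with their anticodon in capitals, since each is shorter than a single read.
MT-TN (asparagine), chrM:5657-5729, minus strand: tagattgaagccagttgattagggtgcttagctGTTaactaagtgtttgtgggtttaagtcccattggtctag
MT-TC (cysteine), chrM:5761-5826, minus strand: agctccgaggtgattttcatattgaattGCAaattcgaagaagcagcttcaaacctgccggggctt
MT-TP (proline), chrM:15956-16023, minus strand: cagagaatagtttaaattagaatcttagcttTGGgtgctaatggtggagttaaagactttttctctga
MT-TQ (glutamine), chrM:4329-4400, minus strand: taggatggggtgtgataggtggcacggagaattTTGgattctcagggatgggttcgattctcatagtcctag
MT-TH (histidine), chrM:12138-12206, plus strand: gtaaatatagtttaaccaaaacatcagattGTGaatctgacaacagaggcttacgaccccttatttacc
Because the 22 tRNA genes are 59 to 75 bases long and reads are 150 bases, a count on a tRNA may come from a precursor that spans it. The strand setting and the library selection are not given in the sources used here, so reads of the opposite strand cannot be told apart from those of the tRNA, and the counts are not levels of mature tRNA.

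Nuclear DNA holds copies of these genes that can take their reads. Of the 15 mRNAs and rRNAs, 12 shared no 150-base word with any other GENCODE transcript. The exceptions were MT-ND2, with 15.7% of its words in MTND2P28, MT-CO1, with 14.5% in MTCO1P12, and MT-ND1, with 1.12% in MTND1P23. The table lists 407 such copies, of which 141 had a count and 13 passed the filter. MTATP6P1, MTND2P28 and MTCO1P12 held 98.6% of the copies' counts. MTND2P28 carried 5.71 to 7.10% as many counts as MT-ND2 over the 12 libraries, and MTATP6P1 carried 6.64 to 12% as many as MT-ATP6. With nilotinib alone, the log2 ratio of mean levels of MT-ND2 plus its copy was -1.57, and the fitted change of the gene was -1.57. The copy itself changed by -1.54 and is small, so the sum could hardly differ and is no test of misplaced reads.

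The libraries held 33457078 to 50506990 counts, and levels are given as CPM, a library's counts scaled to a common total with the TMM factors of edgeR. In all, 20821 genes passed the filter on low counts, among them 36 of the 37 members. MT-TF, the phenylalanine tRNA gene at the start of the transcribed region, did not, with 0 to 0.230 CPM. The erythroid genes GATA1, HBG1, HBG2, LMO2, TFRC and KLF1 had counts in every library. GATA1, the master erythroid transcription factor, was lowest in hemin DMSO, at a mean of 158 CPM against 296 CPM in mock DMSO, 317 CPM in hemin nilotinib and 376 CPM in mock nilotinib. HBG1, a fetal globin gene, was lowest in mock DMSO, at a mean of 195 CPM against 349 CPM in hemin DMSO, 1637 CPM in mock nilotinib and 1840 CPM in hemin nilotinib. KLF1, an erythroid transcription factor, averaged 24.0 CPM in hemin DMSO against 284 CPM in mock DMSO. Of 8 markers of other cells, 5 passed the filter and their summed level ran from 45.8 to 112 CPM, highest in hemin DMSO, and the number of the 8 at 0 in all 3 libraries was 2 in each mock group, 1 in hemin DMSO and 0 in hemin nilotinib. In hemin DMSO the monocyte marker CD14 averaged 9.40 CPM against 0.496 CPM in mock DMSO. The part of these shifts in the mitochondrial values was not tested, and in bulk samples fewer cells of a type and less RNA per cell cannot be told apart. The 4 comparisons share groups in pairs and are not independent.

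The mitochondrial genome supplied a similar share of all counts in 3 groups and a smaller one in hemin DMSO. Its share was 6.02, 7.35 and 6.66% in mock DMSO, 7.60, 6.22 and 5.24% in mock nilotinib, 2.88, 1.45 and 2.86% in hemin DMSO, and 8.83, 7.03 and 5.20% in hemin nilotinib. No hemin DMSO library reached the lowest library of any other group. The mean share was 6.68% ± 0.665 in mock DMSO, 6.35% ± 1.19 in mock nilotinib, 2.40% ± 0.817 in hemin DMSO and 7.02% ± 1.82 in hemin nilotinib (SD, n = 3). The mean of hemin DMSO was 0.359 of that of mock DMSO, and that of hemin nilotinib was 2.93 times that of hemin DMSO, each with an exact two-sided permutation p of 0.1, the smallest that 3 against 3 allows (0.2 after adjustment over the 4 pairs). For nilotinib without hemin p was 0.8, and for hemin with nilotinib it was 0.7. Exact binomial 95% intervals reached at most 0.00936 points either side of a library's share, which covers counting error only.

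The classes did not move together. The mRNAs took 6.03% ± 0.605 of counts in mock DMSO, 4.78% ± 1.0 in mock nilotinib, 1.64% ± 0.613 in hemin DMSO and 5.46% ± 1.66 in hemin nilotinib (SD, n = 3). The rRNAs took 0.630% ± 0.0869, 1.54% ± 0.193, 0.749% ± 0.291 and 1.53% ± 0.214 in the same order. The rRNA share did not overlap between nilotinib and DMSO libraries, with or without hemin, and the mRNA share in hemin DMSO did not overlap with any other group (exact permutation p = 0.1 for each tested pair). The ratio of rRNA to mRNA counts was 0.104 ± 0.0110 in mock DMSO, 0.326 ± 0.0290 in mock nilotinib, 0.474 ± 0.137 in hemin DMSO and 0.292 ± 0.0594 in hemin nilotinib, and the mock DMSO libraries did not overlap with either mock nilotinib or hemin DMSO (exact permutation p = 0.1 for each). rRNA counts depend on how a library was selected, which is not given here.

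Per kilobase of gene, averaged over the 12 libraries, the levels fell in the order MT-CO2 (8522 CPM per kilobase), MT-CO3 (8250), MT-CO1 (7164), MT-RNR2 (6659), MT-ND4 (5096), MT-ATP6 (4709), MT-ND4L (3754), MT-ND2 (2907), MT-CYB (1804), MT-ND3 (1724), MT-ND1 (1558), MT-ND5 (860), MT-RNR1 (703), MT-ND6 (621) and MT-ATP8 (281). MT-ATP8 shares 46 bases with MT-ATP6, and how reads in common were counted is not given, so its place is uncertain. The order differed between groups. MT-CO3 (12496 CPM per kilobase) was highest in mock DMSO, where MT-ND4 (7166) lay above MT-CO1 (7008), MT-RNR2 was highest in mock nilotinib (8909) and in hemin DMSO (4935), and MT-CO2 (11060) was highest in hemin nilotinib. Over the 12 libraries MT-RNR1, the 12S rRNA of the small ribosomal subunit, stood well under MT-RNR2, the 16S rRNA of the large subunit. The count ratio of 16S to 12S varied from 9.58 to 20.1 among the mock DMSO libraries alone.

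Nilotinib in the absence of hemin raised the rRNAs and a set of tRNAs and lowered 2 of the 13 mRNAs. In the edgeR fit, with p-values adjusted over all genes by the Benjamini-Hochberg method and a threshold of 0.05, 12 of 36 members rose and 3 fell, where 20.7% of all genes tested rose and 21.8% fell. Those members were both rRNAs and 10 tRNAs on the one side, and MT-ND2, MT-CYB and the tRNA MT-TH on the other. The median log2 fold change of the 13 mRNAs was -0.20, against 0.00 for all genes.

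**Figure D1:**
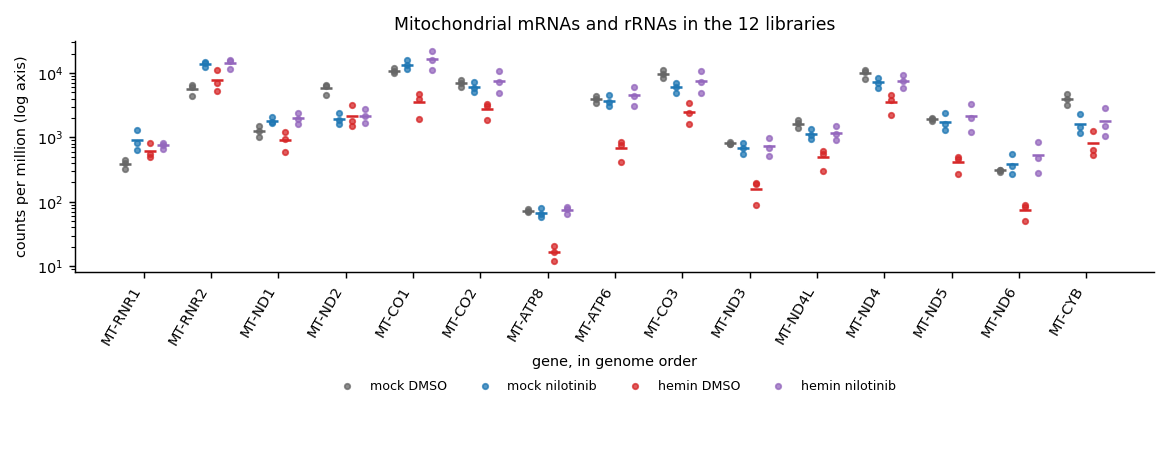
Levels of the 2 rRNAs and 13 mRNAs in CPM on a log axis, in genome order; each dot is a library and each dash the mean of 3 libraries, coloured by group. The hemin DMSO dots lie under the other groups for 10 of the 13 mRNAs, while MT-ND2 is highest in mock DMSO and MT-ND1 and MT-CYB overlap with another group.

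MT-ND2, a membrane subunit of complex I, measured 4627, 6522 and 6216 CPM in mock DMSO and 2376, 1848 and 1635 CPM in mock nilotinib. The groups did not overlap, and MT-ND2 fell 2.96-fold (log2 change -1.57, SE 0.27, edgeR adjusted p = 0.00018). MT-CYB, the cytochrome b of complex III, measured 3241, 4721 and 4001 CPM in mock DMSO and 2300, 1434 and 1173 CPM in mock nilotinib. It fell 2.44-fold (-1.29, SE 0.36, edgeR adjusted p = 0.009), again without overlap. The other 11 mRNAs had log2 changes between -0.70 for MT-CO3 and 0.54 for MT-ND1, none past the threshold, although the groups of MT-ND1, MT-CO3 and MT-ND4L did not overlap. In a fit on the libraries of these groups alone, MT-ND1, MT-CO3, MT-ND4L and MT-ND4 did pass.

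MT-RNR2 rose from 4337, 5963 and 6446 CPM to 14699, 14550 and 12416 CPM, that is 2.49-fold (log2 change 1.32, SE 0.25, edgeR adjusted p = 0.0005). MT-RNR1 rose from 453, 406 and 320 CPM to 1316, 815 and 638 CPM, that is 2.35-fold (1.23, SE 0.24, adjusted p = 0.00061). Every nilotinib library was above every mock DMSO library for both rRNAs. With limma-trend on log2(FPKM + 1), MT-RNR2 missed the threshold (adjusted p = 0.063).

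The asparagine and cysteine tRNA genes, the most abundant of the tRNA class, sit side by side on the minus strand between MT-ND2 and MT-CO1. MT-TN rose from 29, 36.4 and 26.9 CPM to 94.8, 107 and 92.9 CPM (log2 change 1.67, SE 0.24, edgeR adjusted p = 3.2e-05). MT-TC rose from 30.8, 32.5 and 27.7 CPM to 67.6, 99.5 and 91.8 CPM (1.51, SE 0.20, adjusted p = 1.6e-05). Neither overlapped. MT-TS1, for serine, and MT-TM, for methionine, rose by 1.73 and 1.68 on the log2 scale at levels under 2 CPM. Of the 8 minus-strand tRNA genes 5 rose and none fell, with a median log2 change of 1.41. Of 13 tested on the plus strand 5 rose and 1 fell, with a median of 0.24. Of all genes tested 20.7% rose and 21.8% fell. Among the 5 on the minus strand, the call of MT-TQ, at levels under 2 CPM, was lost in 4 of 17 other settings. MT-TH, which follows MT-ND4, fell from 8.83, 6.10 and 7.78 CPM to 3.98, 4.17 and 3.52 CPM (-0.96, SE 0.29, adjusted p = 0.014), a call lost without mock DMSO replicate 1 (adjusted p = 0.052).

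Hemin in the absence of nilotinib lowered 12 of the 13 mRNAs, while neither rRNA fell past the threshold and tRNA genes went both ways. Of 36 members 6 rose and 20 fell, where 25.7% of all genes rose and 27.8% fell. Of the 13 mRNAs 12 fell and none rose, with a median log2 change of -1.99, against -0.05 for all genes. With library totals alone in place of TMM, which moved the median of all genes by -0.24, the split of members was 3 higher and 24 lower, and that of all genes 3881 higher and 7584 lower against 5360 and 5796.

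MT-ATP6, the proton channel subunit of ATP synthase, fell from 3430, 4406 and 3886 CPM in mock DMSO to 777, 421 and 836 CPM in hemin DMSO. This was the largest fall among the mRNAs, 5.76-fold (log2 change -2.53, SE 0.28, edgeR adjusted p = 1.9e-06). Its partner MT-ATP8 fell 4.41-fold, from 73.3, 68.7 and 77 CPM to 16.7, 12 and 20.9 CPM (-2.14, SE 0.18, adjusted p = 1.4e-07). Both ATP synthase genes were separated from mock DMSO by more than the spread of either group.

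MT-ND3, MT-CYB, MT-ND5 and MT-ND6 fell 5.17-, 4.90-, 4.58- and 4.14-fold, and the complex IV subunits MT-CO1, MT-CO2 and MT-CO3 fell 3.03-, 2.55- and 3.98-fold. MT-ND5, the longest of the mRNAs and a complex I subunit, measured 1968, 1831 and 1913 CPM in mock DMSO and 504, 273 and 471 CPM in hemin DMSO. MT-ND6, on the opposite strand, went from 316, 289 and 317 CPM to 88.3, 51.1 and 83.2 CPM. Counts thus fell on genes annotated on either strand. The strand setting is not given, so for MT-ND6 reads of the opposite strand cannot be told apart. MT-ND4L, MT-ND4 and MT-ND2 fell 3.35-, 2.79- and 2.65-fold. For MT-CO2 the adjusted p was 0.080 with limma-trend on log2(FPKM + 1), and 0.00052 with edgeR.

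MT-ND1, the first mRNA after the rRNAs, measured 999, 1486 and 1278 CPM in mock DMSO and 1200, 600 and 945 CPM in hemin DMSO. The groups overlapped and its change did not pass (-0.46, SE 0.23, edgeR adjusted p = 0.10), though it did in 5 of 18 other settings, with values of -0.45 to -0.69, among them library totals alone (-0.68) and the fits without mock DMSO replicate 1 (-0.66) or hemin DMSO replicate 1 (-0.69). Over the 12 plus-strand mRNAs, the log2 change with hemin and the position of the gene start had a Spearman correlation of -0.59 (Pearson -0.69), so genes further along the genome tended to fall more. The genes share libraries, precursor RNAs and in places reads, and this is a description only. With nilotinib alone the Spearman value was -0.42 and with nilotinib on top of hemin it was 0.17.

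The rRNAs did not follow the mRNAs. MT-RNR1 measured 806, 554 and 494 CPM in hemin DMSO, above all mock DMSO libraries (log2 change 0.65, SE 0.24, edgeR adjusted p = 0.029). This call is a weak one, since it was lost in 7 of 18 other settings, among them library totals alone (0.41, adjusted p = 0.175) and the fit without mock DMSO replicate 3 (0.48) or without hemin DMSO replicate 1 (0.42). MT-RNR2 measured 10963, 5217 and 6902 CPM, which overlapped mock DMSO (0.46, adjusted p = 0.13).

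Of 21 tRNA genes tested 5 rose and 8 fell with hemin, where 25.7% of all genes rose and 27.8% fell. The count that rose is near the share of all genes. MT-TH dropped from 8.83, 6.10 and 7.78 CPM to 0.949, 0.446 and 0.760 CPM, 10.5-fold (log2 change -3.39, SE 0.34, edgeR adjusted p = 7.4e-07), and its neighbour MT-TS2 fell 5.25-fold to 0.281 CPM. MT-TP, the last gene of the map, rose from 13.2, 15.5 and 16.9 CPM to 44.0, 18.5 and 34.3 CPM (1.09, SE 0.25, adjusted p = 0.0017). MT-TQ rose from 0.198, 0.191 and 0.173 CPM to 1.16, 0.925 and 0.811 CPM (2.35, SE 0.51, adjusted p = 0.0011). MT-TM rose by 1.67 on the log2 scale, and so did MT-TW (1.53) and MT-TK (1.13), the last pair named after their values were seen. The tRNA genes that rose all lay at or under 2 CPM except MT-TP. MT-TT, for threonine, fell by 1.44, a call lost in 7 of 17 other settings.

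Because mitochondrial mRNAs, rRNAs and tRNAs differ in their 3′ tails, a list of nuclear RNAs taken to lack a poly(A) tail was set beside them. Whether each lacks a tail in these cells was not measured. Of the 9 listed, RN7SK, RN7SL1, RMRP and RPPH1 had 0 counts in every library, and the other 5 were histone genes. With hemin alone 4 histone genes rose and HIST1H2AC, named after its value was seen, fell (-0.85), with a median of 2.20. Of all genes 25.7% rose and 27.8% fell there. With nilotinib alone 2 of the 5 rose and none fell (median 1.25), where 20.7% of all genes rose and 21.8% fell. With nilotinib under hemin 1 rose and 3 fell (median -1.48), where 32.4% of all genes rose and 31.8% fell. The summed level of the list was 125 to 140 CPM in mock DMSO, 86.8 to 121 CPM in hemin DMSO, 309 to 423 CPM in mock nilotinib and 224 to 263 CPM in hemin nilotinib. From mock DMSO to hemin DMSO the sum was thus lower, although 4 of the 5 histone genes rose. The part of the list in the rRNA and tRNA values was not tested.

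**Figure D2:**
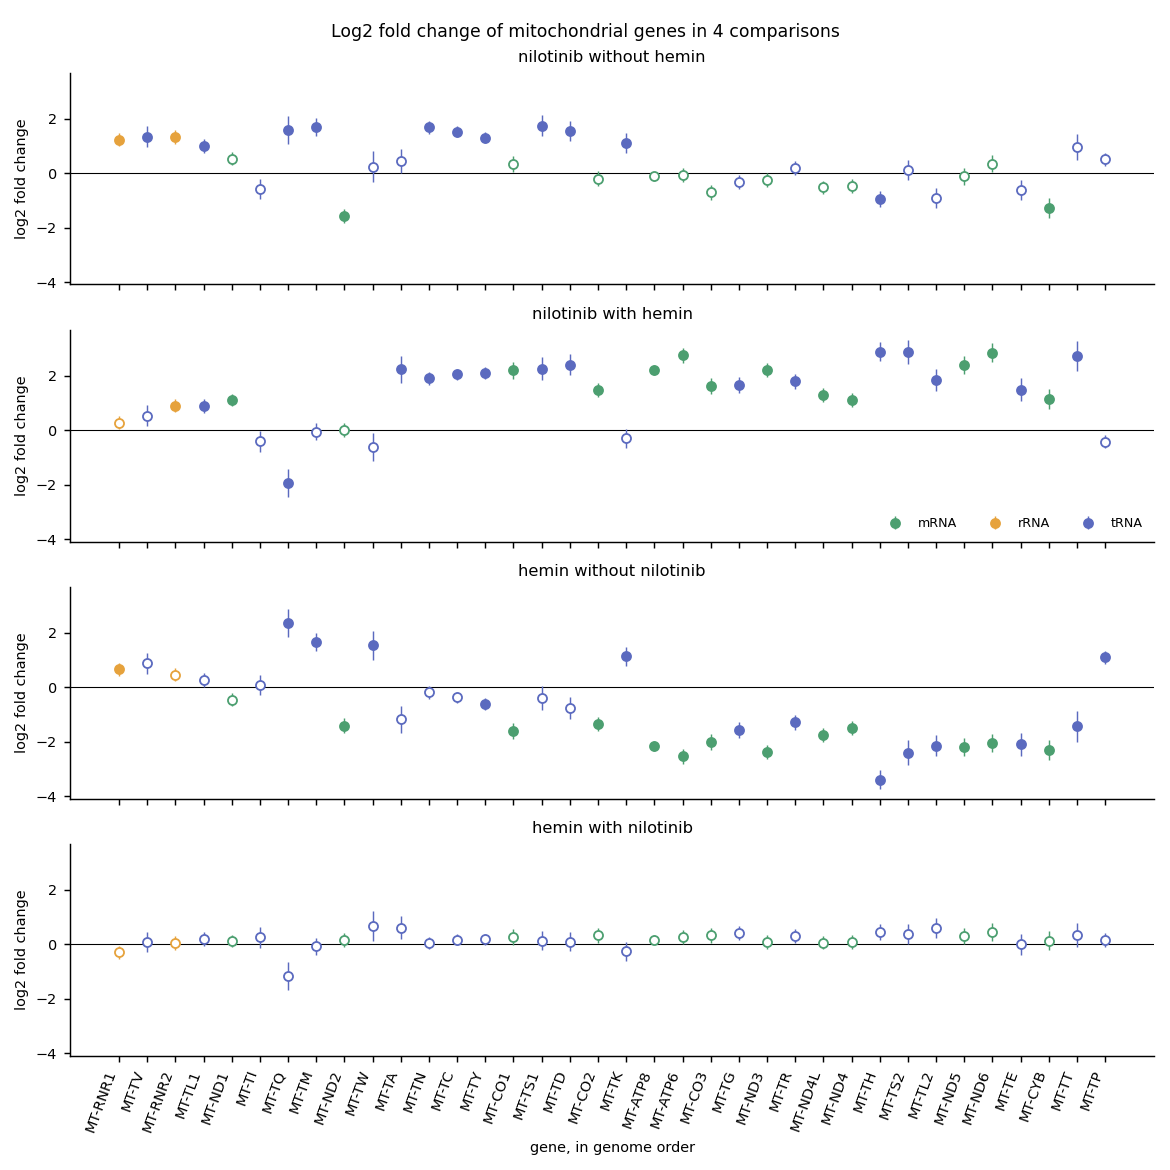
Log2 fold change (± SE) of the 36 tested members in genome order in each of the 4 comparisons; filled symbols passed an adjusted p of 0.05 and open symbols did not. With hemin alone the genes from MT-ATP8 to MT-TT lie under 0, with nilotinib on top of hemin the same stretch lies above 0, and with hemin in nilotinib-treated cells no symbol is filled.

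Nilotinib under hemin raised the mitochondrial mRNAs. Of 36 members 27 rose and 1 fell, where 32.4% of all genes rose and 31.8% fell. Of the 13 mRNAs 12 rose, with a median log2 change of 1.62 against 0.02 for all genes. This comparison and that of hemin alone share the hemin DMSO libraries, so their values are not independent.

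MT-ND6 rose 7.17-fold, from 88.3, 51.1 and 83.2 CPM in hemin DMSO to 835, 478 and 283 CPM in hemin nilotinib (log2 change 2.84, SE 0.33, edgeR adjusted p = 2e-06). MT-ATP6 rose 6.66-fold to 6057, 4405 and 3077 CPM (2.73, SE 0.28, adjusted p = 4.2e-07), and MT-ATP8 rose 4.56-fold to 84.0, 76.6 and 65.9 CPM (2.19, SE 0.18, adjusted p = 4.4e-08). MT-CO1, the catalytic subunit of complex IV, rose 4.56-fold, from 4772, 1922 and 4022 CPM to 21797, 16069 and 11053 CPM (2.19, SE 0.30, adjusted p = 1.1e-05). In all of these every hemin nilotinib library exceeded every hemin DMSO library.

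MT-ND5, MT-ND3, MT-CO3 and MT-CO2 rose 5.20-, 4.62-, 3.07- and 2.77-fold, and MT-ND4L, MT-ND1 and MT-ND4 rose 2.44-, 2.15- and 2.13-fold. MT-CYB was the least secure, rising from 644, 526 and 1271 CPM to 2855, 1492 and 1039 CPM with overlapping groups (1.14, SE 0.36, edgeR adjusted p = 0.011). It fell to 0.65 without hemin nilotinib replicate 1 (adjusted p = 0.069) and missed the threshold without hemin DMSO replicate 1 or 2 (0.999 and 0.91). MT-ND2 stood apart, at 1828, 1495 and 3239 CPM in hemin DMSO and 2731, 2127 and 1700 CPM in hemin nilotinib, with overlapping groups and a change of 0.00 (SE 0.26). With limma-trend on log2(FPKM + 1), MT-CO2, MT-ND4 and MT-CYB missed the threshold (adjusted p = 0.060, 0.065 and 0.053).

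MT-RNR2 rose 1.87-fold with nilotinib under hemin, to 15483, 15963 and 11642 CPM (log2 change 0.90, SE 0.25, edgeR adjusted p = 0.0047, and 0.149 with limma-trend on log2(FPKM + 1)), and MT-RNR1 overlapped between the groups (0.28, adjusted p = 0.31). Of 21 tRNA genes tested 14 rose and 1 fell, where 32.4% of all genes rose and 31.8% fell. MT-TN reached 113, 110 and 81.8 CPM from 40.7, 16.9 and 24.0 CPM (1.90, SE 0.24, adjusted p = 4.2e-06), and MT-TC reached 92.0, 109 and 88.5 CPM from 30.2, 15.6 and 24.3 CPM (2.05, SE 0.20, adjusted p = 3.2e-07). Both thus rose with nilotinib whether or not hemin was present. MT-TH rose 7.34-fold, MT-TS2 7.29-fold and MT-TT 6.59-fold from levels under 1 CPM, and MT-TA, for alanine, the lowest tRNA gene tested, rose 4.68-fold from 0.135 to 0.646 CPM. MT-TQ fell 3.84-fold (-1.94, SE 0.51, adjusted p = 0.0033).

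**Figure D3:**
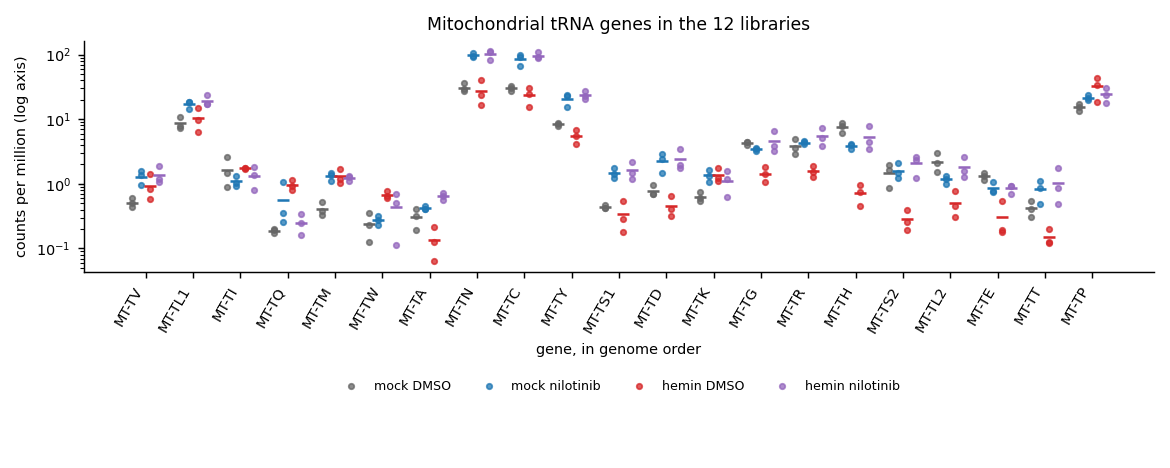
Levels of the 21 tested tRNA genes in CPM on a log axis, in genome order, with a dot for each library and a dash for the mean of each group of 3. MT-TN and MT-TC are higher in both nilotinib groups, and MT-TH is lowest in hemin DMSO. MT-TP has its highest mean in hemin DMSO, where its libraries overlap with both nilotinib groups. Most of the other genes lie under 10 CPM.

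Hemin in nilotinib-treated cells changed no member past the threshold. None of 36 rose or fell, where 3.52% of all genes rose and 2.28% fell. A count of 0 is near these low shares, so it is not particular to the members. The count at an unadjusted p under 0.05 was 1, MT-TQ, by edgeR and 1 by DESeq2, which also called 0 after adjustment. The replicate block, for which these libraries paired, left the count at 0. The log2 changes of the mRNAs ran from 0.06 for MT-ND4L to 0.45 for MT-ND6 with a median of 0.17, and their SE of 0.17 to 0.36 sets the size of change that could be seen. MT-CO1, for example, averaged 13500 ± 2180 CPM in mock nilotinib and 16306 ± 5376 CPM in hemin nilotinib (SD, n = 3).

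The difference between the nilotinib effects with and without hemin was tested as an interaction. It cannot be assigned to hemin alone, since time in culture and possibly the length of nilotinib exposure differed too. For 20 of 36 members the nilotinib effect was higher under hemin and for 4 lower, where 17.1% of all genes were higher and 13% lower. All mRNAs but MT-ND1 (0.57, SE 0.32, edgeR adjusted p = 0.19) were higher, with a median difference of 2.31 log2 units against 0.06 for all genes. MT-ATP6 differed by 2.80 (SE 0.38, adjusted p = 7.7e-05), MT-CYB by 2.43 (SE 0.51, adjusted p = 0.0024) and MT-ND2 by 1.57 (SE 0.37, adjusted p = 0.0051). With limma-trend on log2(FPKM + 1), MT-ND2, MT-CO1, MT-CO2, MT-CO3 and MT-ND4 missed the threshold, at adjusted p of 0.051 to 0.174. The 4 lower members were MT-RNR1 (-0.95, a call lost in 11 of 22 other settings), MT-TQ (-3.52), MT-TM (-1.74) and MT-TK (-1.39). The split over all genes moved from 3558 higher and 2713 lower to 4801 and 1750 with library totals alone, which shifted their median by 0.21, and to 2914 and 3380 with upper-quartile factors, which shifted it by -0.12.

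The make-up of the mRNA pool, taken as each gene's share of the counts of the 13 mRNAs, does not depend on scaling between libraries. MT-CO1 held 20.0, 18.3 and 18.7% of the pool in mock DMSO and 28.8, 29.7 and 30% in mock nilotinib. It held 23.9, 16.9 and 17.6% in hemin DMSO and 29.9, 30.7 and 29.8% in hemin nilotinib. All nilotinib libraries were above all DMSO libraries.

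MT-ND2 went the other way, with 9.39, 10.1 and 10.8% in mock DMSO, 4.34, 4.11 and 4.30% in mock nilotinib, 9.17, 13.1 and 14.2% in hemin DMSO and 3.74, 4.06 and 4.59% in hemin nilotinib. The count ratio of MT-CO1 to MT-ND2, genes that lie side by side but for 5 tRNA genes, was 1.89 ± 0.211 in mock DMSO, 6.94 ± 0.300 in mock nilotinib, 1.71 ± 0.778 in hemin DMSO and 7.35 ± 0.761 in hemin nilotinib. The ratio was higher in every nilotinib library than in every DMSO library (exact permutation p = 0.1 for each).

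MT-ATP6 held 6.85% ± 0.11 of the pool in mock DMSO, 8.12% ± 0.08 in mock nilotinib, 3.75% ± 0.13 in hemin DMSO and 8.34% ± 0.06 in hemin nilotinib (SD, n = 3). Its share was thus low with hemin alone. MT-ND1 held 2.18% ± 0.14 in mock DMSO and 3.75 to 5.14% on average in the other groups, and MT-CYB held 6.95% ± 0.38 in mock DMSO and 3.19 to 4.47% in the others. The count ratio of MT-ND1 to MT-CYB, genes at opposite ends of the map, was 0.314 ± 0.00557 in mock DMSO, 1.17 ± 0.261 in mock nilotinib, 1.25 ± 0.568 in hemin DMSO and 1.22 ± 0.362 in hemin nilotinib. MT-CO3 held 17.1% ± 0.54 in mock DMSO and 13.2 to 13.8% on average in the others. For these genes mock DMSO did not overlap with any other group. Of 52 tests of a share, 31 reached the smallest exact permutation p of 0.1, which is 0.168 after Benjamini-Hochberg adjustment, so the smallest p this design allows did not pass 0.05.

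MT-ND6 is the lone mRNA of the minus strand, and MT-ND5 abuts it on the plus strand. The strand setting is not given, so counts on either gene may include reads of the opposite strand. Their count ratio was 0.161 ± 0.00410 in mock DMSO, 0.220 ± 0.0107 in mock nilotinib, 0.180 ± 0.00647 in hemin DMSO and 0.242 ± 0.0102 in hemin nilotinib (SD, n = 3). The 4 pairs compared did not overlap (exact permutation p = 0.1 for each). The ratio was 1.37 and 1.35 times higher with nilotinib, without and with hemin, and 1.11 and 1.10 times higher with hemin, without and with nilotinib.

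The nuclear genes that serve mitochondrial RNA did not share a direction with the mRNAs in every comparison. Their counts are read against the shares of all genes, of which 20.7% rose and 21.8% fell with nilotinib alone, 25.7% rose and 27.8% fell with hemin alone, 32.4% rose and 31.8% fell with nilotinib under hemin, and 3.52% rose and 2.28% fell with hemin in nilotinib-treated cells. Of the 5 transcription genes, 3 fell with nilotinib alone and 4 fell with hemin alone, and none changed with hemin in nilotinib-treated cells. POLRMT, the mitochondrial RNA polymerase, fell with nilotinib (log2 change -0.67) and with hemin (-0.75), and had a change of -0.07 with nilotinib under hemin (edgeR adjusted p = 0.67). TFAM, which packages the DNA and helps open the promoters, fell with nilotinib (-0.85), with values of -0.39 with hemin and -0.20 with nilotinib under hemin that did not pass. TFB2M, the partner of the polymerase at initiation, fell in all 3 comparisons (-1.10, -0.39 and -0.66 for nilotinib, hemin and nilotinib under hemin). The elongation factor TEFM and the terminator MTERF1 rose with nilotinib under hemin (1.39 and 1.21).

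Of the 4 genes that cut and process the precursors, 3 fell with nilotinib alone (21.8% of all genes), and 2 rose and 2 fell with hemin alone and with nilotinib under hemin. TRMT10C, a subunit of RNase P, fell with nilotinib (-0.93) and with hemin (-1.40), and ELAC2, which cuts the tRNA 3′ end, fell with hemin (-1.61). HSD17B10 and KIAA0391, the other RNase P subunits, rose with hemin (0.96 and 1.17) and fell with nilotinib under hemin (-1.68 and -1.85), and TRMT10C and ELAC2 did the reverse of the latter (0.88 and 1.64). LRPPRC, which with SLIRP holds mRNAs stable, fell with nilotinib (-1.26) and with nilotinib under hemin (-0.97), where the mRNAs rose. SLIRP fell in the same comparisons (-0.50 and -0.86). FASTKD2, an RNA-binding protein of the organelle, fell with hemin (-1.43) and rose with nilotinib under hemin (1.28), as did MTPAP, the poly(A) polymerase, which fell with hemin (-1.06). Of the 9 genes of mRNA stability and polyadenylation, 1 rose and 3 fell with nilotinib alone, where 20.7% and 21.8% of all genes did. With hemin alone 1 rose and 6 fell (25.7% and 27.8% of all genes), and with nilotinib under hemin 5 rose and 2 fell (32.4% and 31.8%).

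The 5 genes of RNA decay and granules all fell with nilotinib alone, where 21.8% of all genes fell, with PNPT1, the polynucleotide phosphorylase, at -1.67 and its helicase partner SUPV3L1 at -1.01. With hemin alone SUPV3L1 rose (0.53) and PNPT1 fell (-0.78). The 5 rRNA modification genes all fell with hemin alone, where 27.8% of all genes fell, with a median of -1.62, while the rRNAs did not fall. MRM1, a methyltransferase for the 16S rRNA, and NSUN4 had log2 changes of -3.02 and -1.74, and with nilotinib under hemin they rose by 2.71 and 1.52.

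Of the 9 replication genes, 5 fell and none rose with nilotinib alone, 6 fell and 1 rose with hemin alone, and 2 fell and 3 rose with nilotinib under hemin, where 21.8%, 27.8% and 31.8% of all genes fell and 20.7%, 25.7% and 32.4% rose. The last count is near the shares of all genes. TWNK, the helicase of the replication fork, had the largest fall in each (-1.70 and -2.89) and rose by 1.36 with nilotinib under hemin. POLG, the DNA polymerase, fell with hemin (-1.21) and rose with nilotinib under hemin (1.11), and SSBP1, the single-strand binding protein, did the reverse (0.55 and -1.18). Copy number of the DNA was not measured. Among the regulators of mitochondrial biogenesis, PPARGC1A stayed under 0.3 CPM in every library and was not tested, its relative PPARGC1B fell with nilotinib (-2.15) and with hemin (-1.56), NRF1 rose with hemin (0.52), and ESRRA fell with hemin (-1.14) and rose with nilotinib under hemin (0.60).

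Respiratory complexes are built from both genomes, and with hemin alone the nuclear and mitochondrial subunits of complexes I, IV and V had medians of opposite sign. With hemin alone, where 25.7% of all genes rose and 27.8% fell, 10 of 11 nuclear complex IV subunits rose and none fell (median 0.55), while the 3 mitochondrial ones fell (median -1.60). For complex V 10 of 17 nuclear subunits rose and 1 fell (median 0.47), against 2 of 2 mitochondrial subunits that fell (median -2.33). For complex I 14 of 37 rose and 3 fell (median 0.34), against 6 of 7 that fell (median -1.75). For complex III 3 of 9 rose and 1 fell (median 0.04), and MT-CYB fell. COX5B rose by 0.78, ATP5MC1 by 0.87 and NDUFB11 by 0.81, while NDUFV3 (-1.13) and UQCRFS1 (-1.35) fell. The nuclear medians shrank to 0.30, 0.22 and 0.09 for complexes IV, V and I at the lowest of the scalings tried and stayed above 0, while that of complex III ranged from -0.21 to 0.16.

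With nilotinib under hemin the signs were the other way round. Where 32.4% of all genes rose and 31.8% fell, all 11 nuclear complex IV subunits fell (median -0.84), 14 of 17 of complex V fell (median -0.74), 23 of 37 of complex I fell and 1 rose (median -0.61), and 6 of 9 of complex III fell and 1 rose, whereas 12 of 13 mitochondrial mRNAs rose. COX5B (-1.34), COX8A (-1.26) and ATP5MC1 (-1.63) fell, while NDUFV3 (1.06) and UQCRFS1 (0.57) rose. Complex II, which has no mitochondrial subunit, had 2 of 4 fall and 1 rise, with SDHB at -1.40 and SDHA at 0.51. With nilotinib alone 4 of 11, 3 of 17 and 9 of 37 nuclear subunits of complexes IV, V and I fell, and 0, 0 and 1 rose, where 21.8% of all genes fell and 20.7% rose. The counts that fell for complexes V and I are near the share of all genes. With hemin in nilotinib-treated cells no nuclear subunit of any complex passed, where 3.52% of all genes rose and 2.28% fell.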

How the data were processed

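RNA-seq libraries of K562 cells were grouped by the condition in their labels. The authors deposited raw read counts per gene and FPKM values made by the sequencing service. Their processing notes name GRCh38.p12, DESeq2 and DESeq, while the aligner, counter, strand setting and annotation release are not given in the sources used here. The deposited FPKM were counts per kilobase divided by size factors; a deposited file of group means was not used. Counts were tested with edgeR 4.0.16 (R 4.3.3) by the quasi-likelihood test with TMM factors, a mean per group over all 12 libraries, a filter of 10 counts (filterByExpr, total of 15) and Benjamini-Hochberg adjustment over 20821 genes, with p under 0.05 as the threshold. SE is the log2 fold change divided by the root of F. Total counts were 33457078 to 50506990, so 3 counts equal 0.0539 to 0.0957 CPM. Shares and ratios were compared by exact two-sided permutation tests (scipy 1.17.1). Alternatives were DESeq2 1.42.0, limma 3.58.1 on log2(FPKM + 1) and log2(FPKM + 0.1), other scalings and filters, single libraries left out, and a replicate block. Scripts were tested on simulated data, whose spread and changes were set and not taken from these libraries. There edgeR recovered 51 of 100 changed genes for nilotinib alone and 54 of 100 for hemin alone, with 1 and 4 false calls. Same-numbered replicates deviated together for hemin with nilotinib (correlations 0.263, 0.199 and 0.254). The correlations were weaker with nilotinib alone (0.095, 0.087 and 0.099) and with hemin alone (0.099, 0.104 and 0.085). For nilotinib with hemin they were uneven (-0.007, 0.082 and 0.235). P-values measure the spread between these 3 cultures of a line. The text names every mitochondrial mRNA and rRNA, the 3 highest and the lowest tested tRNA genes, up to 3 tRNA genes with the largest change past the threshold in each comparison, chosen nuclear genes and up to 2 per list with the largest change past the threshold. Members and lists were chosen with earlier results of these data known. A gene of the erythroid marker list is not reported here.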

Additional observations from a re-analysis of the deposited data

Results flagged for a closer look

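By the interaction term of the edgeR fit (adjusted p under 0.05), the nilotinib effect was higher under hemin for 20 of 36 members and lower for 4. Of all genes tested 17.1% were higher and 13% lower. The naming rule picked 25 members, some tRNA genes partly because they passed this test, so their count is not a rate. Those past the threshold were 18 of the 25. The differences, as nilotinib effect with hemin minus that without, in log2 units, were 2.80 for MT-ATP6, 2.50 for MT-ND5, 2.50 for MT-ND6, 2.45 for MT-ND3, 2.43 for MT-CYB, 2.32 for MT-CO3, 2.31 for MT-ATP8, 1.87 for MT-CO1, 1.81 for MT-ND4L, 1.67 for MT-CO2, 1.57 for MT-ND2 and 1.56 for MT-ND4. Among tRNA genes they were 3.84 for MT-TH, 2.76 for MT-TS2, 1.77 for MT-TA, -1.74 for MT-TM and -3.52 for MT-TQ, and for the rRNA MT-RNR1 the difference was -0.95. For MT-ND2 the nilotinib effect was -1.57 without hemin and 0.00 with it, and for MT-CYB it was -1.29 and 1.14. The calls of MT-RNR1 and MT-TA were lost in 11 of 22 and 14 of 21 other settings.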

How the results depend on the processing

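The count of members called stayed within 1.5 times in every setting run: 13 to 22 against 15 for nilotinib without hemin, 22 to 28 against 28 for nilotinib with hemin, 22 to 28 against 26 for hemin without nilotinib, 0 against 0 for hemin with nilotinib, and 17 to 25 against 24 for the interaction. The median log2 change of the 13 mRNAs ran from -0.39 to -0.09, from 1.32 to 1.92, from -2.21 to -1.75, from -0.04 to 0.40 and from 1.94 to 2.49 in the same order of comparisons. With the replicate block the counts were 16, 28, 26, 0 and 23 in the same order, and in a paired fit on the libraries of the groups compared, chosen after seeing the data, 22, 28, 28 and 0. MT-TQ fell to 0.69 with nilotinib alone without mock nilotinib replicate 1 (adjusted p = 0.305, against 1.58). The fits that require 10 counts in every library drop the low tRNA genes, so they call fewer. The mean share of counts lay between 5.73 and 7.93% in 3 groups and between 2.16 and 2.87% in hemin DMSO when a library was left out, and between 2.48 and 7.41% over protein-coding counts. The 3 libraries a group and tRNA genes near 1 CPM limit what can be seen.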
